A study of Mus musculus with 6 samples.

Results

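Expression of 41 genes of the senescence-associated secretory phenotype and of NF-kB signalling was examined in NOR-10 cells, an established mouse line of skeletal muscle fibroblasts, grown with or without D-galactose (D-gal). The members were the table rows whose symbol stands in a fixed list of cytokines, chemokines, their receptors, NF-kB subunits and inhibitors, Ptgs2, plasminogen activators and adhesion molecules, and all 41 symbols were found among the 34745 genes of the table. RNA-seq had been performed on 3 control libraries from cells given PBS (Con) and 3 libraries from cells given D-gal (Dgal). By the study's methods D-gal was added at 20 mg/mL and left for 3 days, with serum-supplemented DMEM for both groups, and the question was what D-gal, used there to induce senescence, changed in the cells. A single line was used, and the labels do not say whether libraries of a group came from separate cultures, so the p-values measure only the spread between these libraries, which may be technical.

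Senescent cells are known for releasing a mixture of cytokines, chemokines, growth factors and proteases, called the senescence-associated secretory phenotype, through which they act on neighbouring cells and attract leukocytes. NF-kB is a family of transcription factors held in the cytoplasm by inhibitors of the IkB type. When the inhibitors are degraded, dimers such as p50 with RelA enter the nucleus, bind kappaB sites in promoters and induce many of these secreted factors, together with their own inhibitors Nfkbia and Tnfaip3. In skeletal muscle, fibroblasts are a source of such signals for muscle stem cells and infiltrating leukocytes.

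Promoter letters of the members are shown because kappaB sites are the DNA sites that NF-kB binds. Promoter sequence, from 250 bases before to 50 bases after the annotated start (RefSeq, GRCm38.p6), was matched for 29 of the 41 members. The kappaB letters GGANTTTCC, or their reverse complement GGAAANTCC, were searched on both strands and stood in the window of 11 of the 29 (37.9%), beside 1.45% of the 27025 gene symbols with a promoter in the same table. Several members are in the list because they are known NF-kB targets, so this share is a description of the list. Only this form of the site was searched, so a member without these letters may hold a kappaB site of another form. The following stretches read 5′ to 3′ on the strand of the gene, with the kappaB letters in capitals, and they lie before an annotated start. Nfkb2 has several annotated starts, and its match lay at position -224 from one and at position 12, after the start, from another.
Csf1 (chr3:107760595-107760643, minus strand): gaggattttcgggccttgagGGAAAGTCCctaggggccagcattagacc
Il6 (chr5:30013051-30013099, plus strand): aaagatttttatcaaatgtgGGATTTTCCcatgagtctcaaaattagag
Cxcl1 (chr5:90891155-90891203, plus strand): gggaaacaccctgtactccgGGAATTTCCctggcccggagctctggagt
Cxcl2 (chr5:90903783-90903831, plus strand): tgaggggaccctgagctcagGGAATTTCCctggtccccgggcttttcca
Cxcl3 (chr5:90786009-90786057, plus strand): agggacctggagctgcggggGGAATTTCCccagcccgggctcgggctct
Cxcl10 (chr5:92349019-92349067, minus strand): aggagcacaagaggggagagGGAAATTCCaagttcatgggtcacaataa
Nfkb2 (chr19:46305686-46305734, plus strand): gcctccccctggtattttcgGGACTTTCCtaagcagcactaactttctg
Nfkbia (chr12:55492797-55492845, minus strand): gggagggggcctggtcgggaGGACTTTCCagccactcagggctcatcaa
Nfkbia (chr12:55492648-55492696, minus strand): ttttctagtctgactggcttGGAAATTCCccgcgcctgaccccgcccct
Tnfaip3 (chr10:19015411-19015454, minus strand): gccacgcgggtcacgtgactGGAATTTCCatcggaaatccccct
Icam1 (chr9:21015767-21015815, plus strand): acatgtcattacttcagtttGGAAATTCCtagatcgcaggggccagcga
The match in Cxcl1, Cxcl2, Cxcl3 and Tnfaip3 had the letters GGAATTTCC, and that in Cxcl10, in Icam1 and nearest the start of Nfkbia was the reverse complement, GGAAATTCC. Cxcl1, Cxcl2 and Cxcl3 are neighbouring CXC chemokine genes. The farther match of Nfkbia and that of Nfkb2 shared the letters GGACTTTCC. In Il1rl1 the letters lay after the start and are not shown.

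The AP-1 letters TGACTCA, or TGAGTCA on the other strand, stood in the window of 7 of the 29 members (24.1%), beside 5.95% of the symbols, and no match of it overlapped a kappaB match. They were found in Il1a, Il6, Il11, Lif, Cxcl10, Tnfaip3 and Plaur. Of these, Il6, Il11, Cxcl10 and Tnfaip3 did not pass the test of expression below, and Il1a was not tested. Lif and Plaur were picked because both fell in the Dgal libraries, so the choice shows no link between the letters and a fall. Their stretches are given with the AP-1 letters in capitals.
Lif (chr11:4257320-4257366, plus strand): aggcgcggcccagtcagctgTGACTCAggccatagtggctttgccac
Plaur (chr7:24462394-24462440, plus strand): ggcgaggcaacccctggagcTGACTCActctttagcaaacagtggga

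**Figure D1:**
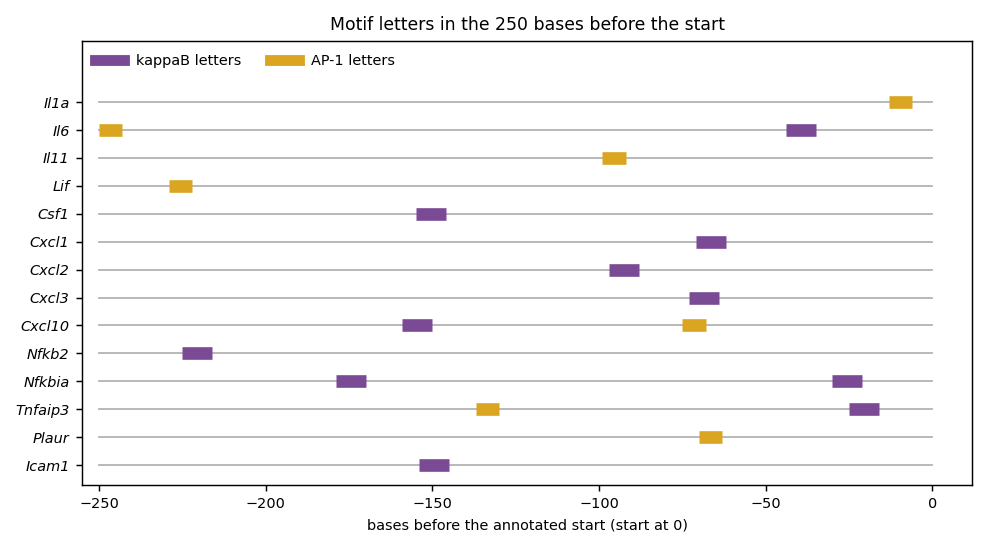
Each line stands for the 250 bases before the annotated start (at 0) of a member, with the position of the kappaB letters (purple) and the AP-1 letters (orange) on the axis in bases. Il6, Cxcl10 and Tnfaip3 held both, and Nfkbia held the kappaB letters at 2 places. For a member with several annotated starts, such as Nfkb2, the line is for a start with the letters before it.

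Library totals lay between 13759108 and 20830349 counts, and the members held 0.671 to 0.683% of the counts in the Con libraries and 0.638 to 0.662% in the Dgal libraries. After the filter on low counts, 13407 genes were tested. Log2 fold changes are given as Dgal over Con throughout. The fibroblast label was checked with 10 marker genes, whose summed level was 13568 to 13873 CPM (counts scaled to the library total) in the Con libraries and 7401 to 7722 CPM in the Dgal libraries. Of the 9 of these tested, 7 fell and 1, Pdgfrb, rose. Lum, another fibroblast marker, had 1 count in Con replicate 2 and 0 elsewhere, and the sum was made up mostly of Fn1, Col1a1 and Col1a2. The summed level of macrophage and leukocyte markers (12 gene identifiers) was 82.8 CPM in Con replicate 1, 34.1 and 26.8 CPM in Con replicates 2 and 3, and 43.0 to 48.6 CPM in the Dgal libraries, with Cd3e, a T cell marker, at 0 in every library. Lyz2, a lysozyme of myeloid cells, had 627 counts in Con replicate 1 and 114 and 86 in the other Con libraries, so that library stood apart for these markers. The summed levels of myogenic, endothelial, adipocyte and epithelial markers stayed below 10 CPM in every library, and pericyte markers summed to 56.2 to 58.2 CPM in the Con and 70.0 to 82.5 CPM in the Dgal libraries. The part of these marker differences in the results was not tested, and in bulk RNA fewer cells of a type and less RNA per cell cannot be told apart.

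Most of the members whose level differed between the groups were lower in the Dgal libraries. Of the 35 members that passed the filter on low counts, 18 fell (51.4%) and 4 rose (11.4%) at an adjusted p under 0.05 (edgeR quasi-likelihood test with Benjamini-Hochberg adjustment over all genes tested), beside 17.8% and 16.9% of all genes tested. The 4 that rose were Ptgs2, Csf1, Ccl5 and Ccl7. Those that fell included the cytokines Il33, Hgf and Lif, the chemokines Ccl11, Cxcl12 and Cx3cl1, and receptors for interleukin-1, interleukin-33 and TNF. Also lower were the NF-kB subunits Nfkb1, Nfkb2 and Relb, the plasminogen system members Plau, Plat and Plaur, and the adhesion molecules Vcam1 and Icam1. The other 13 members did not pass the test, among them Il6 and Ccl2. The median log2 fold change of the tested members was -0.26, with a range from -1.54 to 0.62, beside 0.0036 over all genes tested. Without Con replicate 1, the library with the high leukocyte markers, 20 of the 22 members still passed, with Icam1 and Nfkb1 no longer among them.

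When the log2 fold change also had to reach 1 in either direction, 3 members were lower, Il33, Hgf and Ccl11 (8.57% of those tested, beside 1.83% of all genes), and 0 were higher, beside 2.37% of all genes. The 3 Dgal libraries all lay below the 3 Con libraries in 20 members and all above them in 6, beside 25.0% and 24.1% of all genes tested, and the groups overlapped in 9 members. With 3 libraries against 3, the exact permutation test (two-sided) of a single gene cannot give a p below 0.1, and it gave that value for each of the 26 members whose groups did not overlap.

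**Figure D2:**
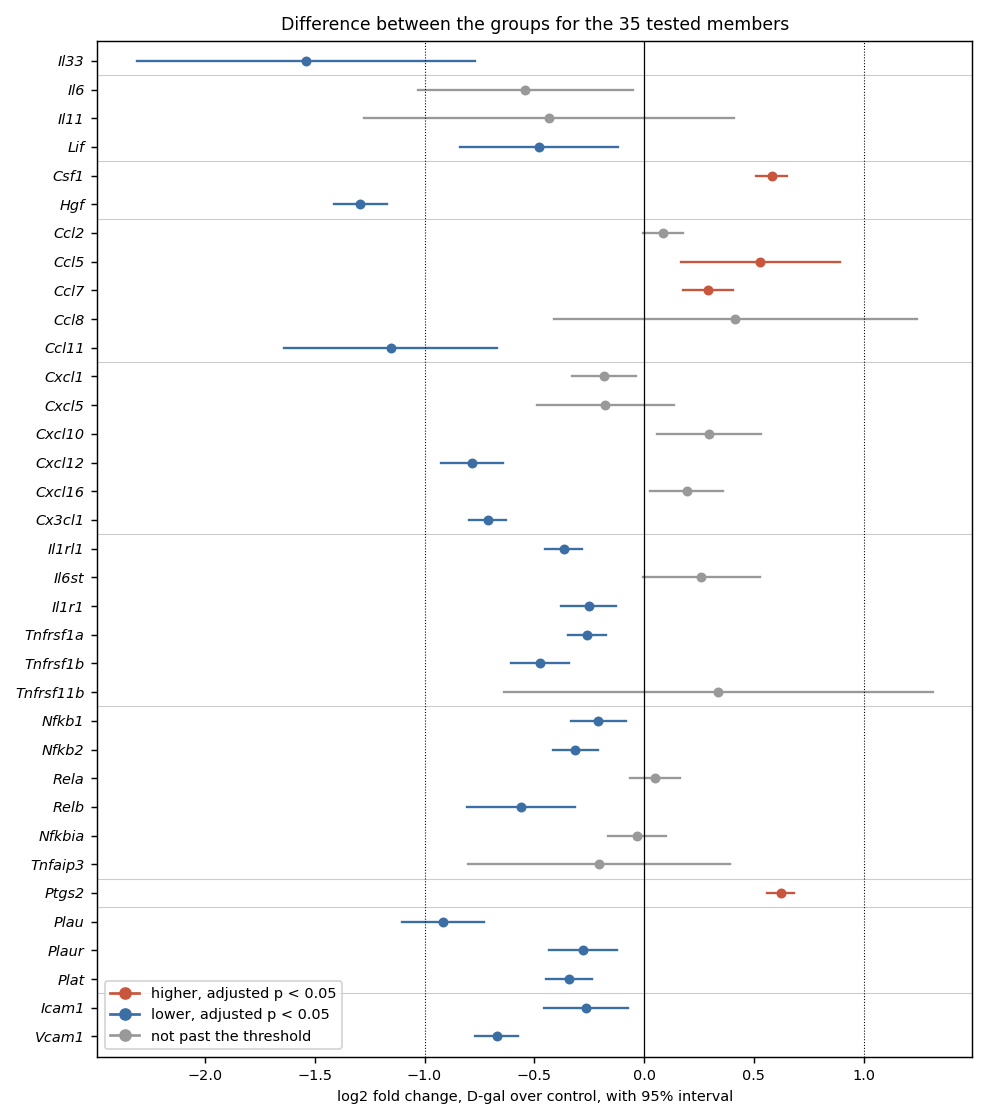
Log2 fold change of each of the 35 tested members (points) with its 95% interval (bars), ordered by role, and dotted lines at a change of 1 in size. The points of Il33, Hgf and Ccl11 lie to the left of -1, and Ptgs2, Csf1, Ccl5 and Ccl7, in red, lie between 0 and 1 with Ptgs2 at 0.62.

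Interleukin-33 (ENSMUSG00000024810, chr19:29925114-29960718, plus strand of GRCm38), an alarmin of the interleukin-1 family released from damaged stromal cells, had the largest difference of the members tested. Il33 had 137, 124 and 108 normalized counts in Con replicates 1, 2 and 3 and 58.4, 17.5 and 51.8 in the Dgal libraries. Dgal replicate 2 was the lowest, and the groups did not overlap. Il33 was 2.91-fold lower in the Dgal libraries (log2 fold change -1.54, SE 0.33, adjusted p = 0.00894, 95% interval -2.31 to -0.77), and without Dgal replicate 2 the log2 fold change was -1.16. Il1a and Il1b, the classical interleukin-1 cytokines upstream of the secretory phenotype, were near 0. Il1a had 2 counts in Con replicate 2 and in Dgal replicate 3 and 0 elsewhere, and Il1b had at most 2 counts in any library, so neither entered the test. A count of 0 allows up to 3 counts, which is 0.144 to 0.218 CPM depending on the library, for counting error only.

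In the interleukin-6 family, whose members signal through the shared receptor Il6st, Lif fell and Il6 and Il11 did not pass the test. Lif, a cytokine that acts on muscle precursor cells, had 101, 115 and 129 normalized counts in the Con libraries and 93.1, 69.9 and 84.3 in the Dgal libraries. Each Dgal library lay below each Con library (log2 fold change -0.48, SE 0.16, adjusted p = 0.0457), and the adjusted p was 0.0911 to 0.130 without Con replicate 2 or 3 or Dgal replicate 2 or 3. Il6, the best known cytokine of the secretory phenotype, had 79, 74 and 77 counts in the Con libraries and 44, 32 and 48 in the Dgal libraries. On the normalized scale the Il6 values were 68.8, 60.4 and 77.8 against 49.4, 34.9 and 57.8, and the groups did not overlap, but the difference missed the threshold (log2 fold change -0.54, SE 0.21, adjusted p = 0.0839, 95% interval -1.03 to -0.05). Il11, a cytokine linked to fibrosis, had 11, 15 and 12 counts in the Con libraries and 5, 10 and 7 in the Dgal libraries, and the groups overlapped on the normalized scale (log2 fold change -0.43, SE 0.36, adjusted p = 0.402, 95% interval -1.27 to 0.41).

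The growth factor cytokines moved in opposite directions. Csf1 (ENSMUSG00000014599, chr3:107741048-107760469, minus strand), which keeps macrophages alive and drives their growth, had 11150.1, 11287 and 10899.5 normalized counts in the Con libraries and 17039, 16134 and 16685 in the Dgal libraries. The groups lay far apart relative to their spread, and Csf1 rose 1.5-fold (log2 fold change 0.58, SE 0.03, adjusted p = 1.07e-05, 95% interval 0.51 to 0.65). Its promoter held the kappaB letters shown above. Hgf (ENSMUSG00000028864, chr5:16553495-16620152, plus strand), the ligand of the receptor Met and an activator of quiescent muscle stem cells, had 3542, 3483 and 3404 normalized counts in the Con libraries and 1512, 1318 and 1428 in the Dgal libraries. Hgf was 2.45-fold lower (log2 fold change -1.29, SE 0.05, adjusted p = 3.95e-06, 95% interval -1.41 to -1.17), the smallest adjusted p of the members. The annotated gene Gm43489 overlaps Hgf on the same strand and shares 6.31% of its 31-base words, so a share of its reads cannot be placed with certainty.

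**Figure D3:**
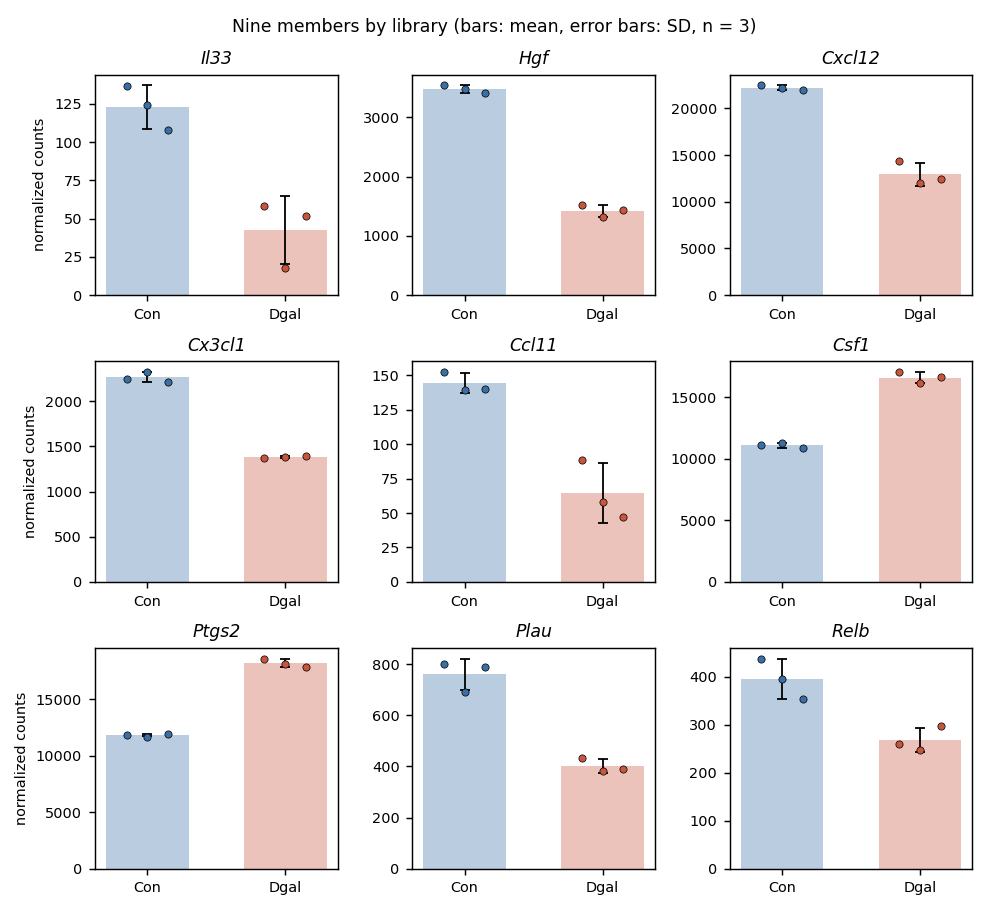
Normalized counts of 9 members in each library (points), with the mean (bars) and SD (error bars, n = 3) of the Con (blue) and Dgal (red) groups and an axis from 0. Csf1 and Ptgs2 stood higher in the 3 Dgal libraries and the other 7 members lower, with no overlap between the groups in any panel.

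Among the CC chemokines, which attract monocytes, eosinophils and T cells, Ccl7 and Ccl5 rose and Ccl11 fell. Ccl7, a monocyte attractant, had 4396, 4802 and 4641 normalized counts in the Con libraries and 5802, 5824 and 5293 in the Dgal libraries, and it rose 1.22-fold (log2 fold change 0.29, SE 0.05, adjusted p = 0.00288). Ccl5, which attracts T cells and monocytes, had 111, 103 and 76.8 normalized counts in the Con libraries against 143, 128 and 151 in the Dgal libraries, with the lowest value in Con replicate 3 (log2 fold change 0.53, SE 0.16, adjusted p = 0.0329). The adjusted p of Ccl5 was 0.0604 to 0.0950 when Con replicate 2 or 3 or Dgal replicate 1 or 3 was left out. Ccl11 (ENSMUSG00000020676, chr11:82057823-82062955, plus strand), the eosinophil attractant eotaxin, had 153, 139.5 and 140.4 normalized counts in the Con libraries and 88.7, 57.9 and 47.0 in the Dgal libraries. It was 2.23-fold lower (log2 fold change -1.15, SE 0.21, adjusted p = 0.00393, 95% interval -1.64 to -0.67). Without Dgal replicate 3, the lowest library, the log2 fold change was -0.98.

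Ccl2, the main monocyte attractant and among the 3 highest in level per kilobase, did not pass the test. It had 6119 ± 148 normalized counts in the Con and 6495 ± 273 in the Dgal libraries (SD, n = 3), and the interval of its log2 fold change ran from -0.0036 to 0.18 (adjusted p = 0.125, edgeR). Without Dgal replicate 1 the adjusted p was 0.0418, at a log2 fold change of 0.12. Ccl8 had 10 to 18 counts per library and an interval from -0.41 to 1.24 (adjusted p = 0.412). Ccl20, an attractant of dendritic cells, had 1, 13 and 6 counts in the Con libraries and 3, 1 and 3 in the Dgal libraries and was below the filter. Ccl2, Ccl7, Ccl11 and Ccl8 lie within 81.2 kb of chromosome 11, together with Ccl12, which had 0 counts in every library. Neighbours in this cluster thus had log2 fold changes of 0.09, 0.29, -1.15 and 0.42 in their order along the chromosome.

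Of the 6 CXC and CX3C chemokines tested, Cxcl12 and Cx3cl1 fell (33.3%) and 0 rose, beside 17.8% and 16.9% of all genes tested. Cxcl12 (ENSMUSG00000061353, chr6:117168535-117181367, plus strand), which retains stem cells and leukocytes through the receptor Cxcr4, had 22510.3, 22213 and 21993 normalized counts in the Con libraries and 14351, 11991 and 12440.0 in the Dgal libraries. It was 1.72-fold lower (log2 fold change -0.78, SE 0.06, adjusted p = 6.44e-05, 95% interval -0.92 to -0.64). Cx3cl1, fractalkine, a chemokine tethered to the cell surface and shed from it, had 2252, 2326 and 2218 normalized counts in the Con libraries against 1369, 1384 and 1397 in the Dgal libraries. Its values within each group were close, and it was 1.64-fold lower (log2 fold change -0.71, SE 0.04, adjusted p = 9.89e-06, 95% interval -0.80 to -0.63).

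The neutrophil attractants and interferon-inducible chemokines of the same family showed smaller differences. Cxcl1, an attractant of neutrophils with the kappaB letters in its promoter, had 2388, 2346 and 2285 normalized counts in the Con libraries and 2279, 1950.3 and 1947 in the Dgal libraries. The groups narrowly did not overlap and the difference missed the threshold (log2 fold change -0.18, SE 0.06, adjusted p = 0.0545), which it passed without Dgal replicate 1 (log2 fold change -0.26, adjusted p = 0.00306). Cxcl10, an attractant of T cells induced by interferon, had its 3 Dgal libraries above the 3 Con libraries (log2 fold change 0.29, SE 0.10, adjusted p = 0.0576), and so had Cxcl16 (log2 fold change 0.19, SE 0.07, adjusted p = 0.0712). Both overlap a gene on the other strand, Art3 and Zmynd15, with which counting that ignores strand could mix reads. Cxcl5, another neutrophil attractant, overlapped between the groups (log2 fold change -0.18, SE 0.14, adjusted p = 0.353). Cxcl2 had 6, 2 and 8 counts in the Con libraries and 3, 1 and 0 in the Dgal libraries, Cxcl3 had 2 counts in Dgal replicate 2 and 0 elsewhere, and Cxcl14 had 0 in every library. Cxcl1, Cxcl2, Cxcl3 and Cxcl5 lie within 146.6 kb of chromosome 5, and of these neighbours Cxcl1 had the highest count in every library.

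Per kilobase of exon, the tested members, secreted or not, were dominated by a few genes, and the order of their levels depended in part on the gene length used. With the union of annotated exons, Ccl7 had the highest level in both groups, 5759 ± 256 normalized counts per kilobase in the Con and 7041 ± 375 in the Dgal libraries (SD, n = 3), followed by Ccl2 with 5377 ± 130.2 and 5707 ± 240.0. Next in level in the Con libraries came Il1rl1 (2903 ± 46.4), Cxcl12 (2720.0 ± 31.8), Ptgs2 (2582 ± 22.8) and Csf1 (2104 ± 37.2). In the Dgal libraries the order of these 4 levels was Ptgs2 (3973 ± 79.4), Csf1 (3147 ± 86.4), Il1rl1 (2253 ± 107) and Cxcl12 (1581 ± 153).

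With the length behind the deposited FPKM, which is 1909 bases rather than 1138 for Ccl2, Ccl7 kept the highest level in both groups. The level of Ccl2 was then 3205 ± 77.6 in the Con and 3402 ± 143 in the Dgal libraries, below Ptgs2 in the Dgal libraries (3877 ± 77.5). In the Con libraries that length put Ptgs2 (2519 ± 22.3) above Il1rl1 (1809 ± 28.9), Cxcl12 (1717 ± 20.1) and Csf1 (1397 ± 24.7). The level of Csf1 lay below those of Il1rl1 and Cxcl12 in the Con libraries and above both in the Dgal libraries with either length, whereas the place of Ptgs2 in the Con libraries and that of Ccl2 in the Dgal libraries changed with it. The level of Ccl7, with 801 bases by either length, did not move. The choice of length moved the other levels given here by more than the spread between libraries, so the order of members with close levels is not firm.

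As a share of the summed level per kilobase of the 17 tested cytokines and chemokines, Ccl7 had 30.4% in the Con and 35.6% in the Dgal libraries with the exon union, and 40.4% and 46.4% with the FPKM length. The share of Csf1 was 11.1% and 15.9% with the union and 9.81% and 13.8% with the FPKM length, and that of Cxcl12 was 14.3% and 7.98% against 12.1% and 6.58%. Ccl2 had 28.4% and 28.9% with the union and 22.5% and 22.4% with the FPKM length. The shares of 1 library sum to a fixed total, so they are a description, with no test.

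**Figure D4:**
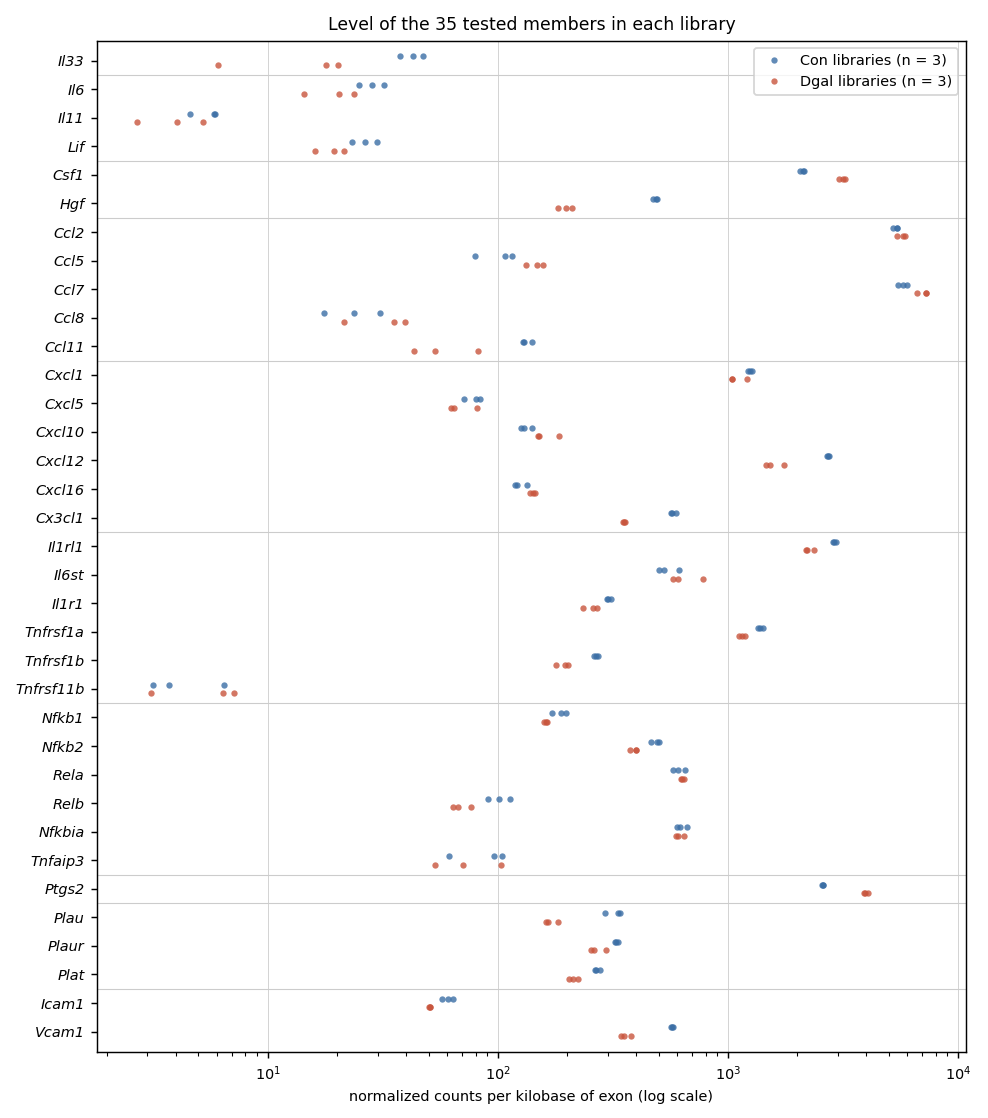
Level of the 35 tested members in normalized counts per kilobase of exon (log scale), with each point a Con (blue) or Dgal (red) library and members ordered by role. Levels use the union of annotated exons, with which Ccl7 and Ccl2 stand farthest to the right, and the Con and Dgal points of Hgf, Cxcl12, Cx3cl1 and Vcam1 are clearly apart.

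Of the 6 receptors, 4 fell (66.7%, beside 17.8% of all genes tested) and 2 did not pass the test. Il1rl1, the receptor of interleukin-33, was the most abundant receptor, with 19752, 19917 and 20370.1 normalized counts in the Con libraries and 16383, 15142 and 15069 in the Dgal libraries. Il1rl1 was 1.29-fold lower (log2 fold change -0.37, SE 0.04, adjusted p = 2.12e-04), and gene counts do not separate its soluble from its membrane form. Its ligand Il33 fell in the same libraries, as given above. Tnfrsf1b, the TNF receptor found mostly on leukocytes, had 1041, 1025 and 997 normalized counts in the Con libraries against 769.9, 686 and 749 in the Dgal libraries (log2 fold change -0.47, SE 0.06, adjusted p = 5.61e-04). Tnfrsf1a, the broadly expressed TNF receptor, had 3487, 3695 and 3556 normalized counts in the Con libraries against 3073, 2903 and 2988 in the Dgal libraries, a smaller difference (log2 fold change -0.26, SE 0.04, adjusted p = 0.00135). In all 3 receptors the Dgal libraries lay below the Con libraries.

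Il1r1, the signalling receptor of interleukin-1, also fell (log2 fold change -0.25, SE 0.05, adjusted p = 0.00885). It lies within 240.3 kb of chromosome 1 with Il1rl1 and Il1rl2, the receptor of interleukin-36, which is no member and had 672, 750 and 571 counts in the Con and 375, 368 and 339 in the Dgal libraries (log2 fold change -0.53). Il6st, the signal-transducing chain shared by the interleukin-6 family, had overlapping groups and replicate 2 as the highest library in both (log2 fold change 0.26, SE 0.12, adjusted p = 0.121, 95% interval -0.01 to 0.53). Tnfrsf11b, osteoprotegerin, a decoy receptor, had 8 to 18 counts per library and an interval from -0.64 to 1.31.

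Among the NF-kB genes, 3 of the 6 fell, and the others did not pass the test. Relb, the subunit of the non-canonical pathway, had 437, 395 and 353 normalized counts in the Con libraries and 260.4, 248 and 296 in the Dgal libraries, 1.48-fold lower (log2 fold change -0.56, SE 0.11, adjusted p = 0.00486). Nfkb2, which encodes the p100 precursor of its partner p52, had 2129.8, 2260.3 and 2290.4 normalized counts in the Con libraries against 1828, 1716 and 1835 in the Dgal libraries (log2 fold change -0.31, SE 0.04, adjusted p = 0.00125). Psd and AC114539.1 overlap Nfkb2 on the other strand, and 16.3% of its 31-base words are shared. Nfkb1, which encodes p105 and p50, had 2390.4, 2073 and 2268 normalized counts in the Con libraries against 1908, 1949 and 1968 in the Dgal libraries (log2 fold change -0.21, SE 0.05, adjusted p = 0.0191). In these 3 genes the groups did not overlap, and the difference in Nfkb1 was the smallest of the 3. The adjusted p of Nfkb1 was 0.0545 to 0.0565 without Con replicate 1 or 3 or Dgal replicate 1.

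Rela, the main transactivating subunit, had 1880.2 ± 115 normalized counts in the Con and 1946 ± 26.0 in the Dgal libraries (SD, n = 3), with an interval of the log2 fold change from -0.06 to 0.16. Nfkbia, the inhibitor IkBalpha and an early NF-kB target with the kappaB letters at 2 places, had 1013 ± 52.8 and 991 ± 41.1, with an interval from -0.16 to 0.10 (adjusted p = 0.707, edgeR). Tnfaip3, the ubiquitin-editing inhibitor A20 and another target, varied more within the groups than between them, with 695, 752 and 441 normalized counts in the Con libraries and 386, 511 and 748 in the Dgal libraries. Its interval ran from -0.80 to 0.39.

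Of the members with the kappaB letters, 9 were tested, of which 1 rose (Csf1, 11.1%), 3 fell (Nfkb2, Icam1 and Il1rl1, 33.3%) and 5 did not pass the test. Of the 14 tested members with a promoter sequence but without the letters, 1 rose (7.14%), 9 fell (64.3%) and 4 did not pass the test. Of all genes tested, 16.9% rose and 17.8% fell. The 12 members without a promoter sequence are in neither count. No test of a difference between these counts was made.

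Ptgs2 (ENSMUSG00000032487, chr1:150100031-150108227, plus strand), cyclooxygenase-2, the inducible enzyme that starts prostaglandin synthesis, rose in the Dgal libraries. It had 11856, 11707 and 11908 normalized counts in the Con libraries and 18599, 18104 and 17890.1 in the Dgal libraries. The Con libraries differed little among themselves and all lay below the Dgal libraries. Ptgs2 rose 1.54-fold (log2 fold change 0.62, SE 0.03, adjusted p = 4.57e-06, 95% interval 0.56 to 0.68), the largest rise among the members tested.

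The 3 plasminogen system members all fell, beside 17.8% of all genes tested, and 3 genes are too few to describe the system. Plau, urokinase, which activates plasminogen at the cell surface, had 801, 692 and 791 normalized counts in the Con libraries and 433, 383 and 392 in the Dgal libraries, 1.89-fold lower (log2 fold change -0.92, SE 0.08, adjusted p = 1.19e-04). Plat, the tissue plasminogen activator, had 1658, 1732 and 1663 normalized counts in the Con libraries against 1277, 1393 and 1319 in the Dgal libraries (log2 fold change -0.34, SE 0.05, adjusted p = 9.14e-04). Plaur, the receptor that binds urokinase, had 858, 843 and 875 normalized counts in the Con libraries against 775, 685 and 665 in the Dgal libraries (log2 fold change -0.28, SE 0.07, adjusted p = 0.0147). The groups did not overlap in any of the 3, and the decrease was largest in Plau. The adjusted p of Plaur was 0.0525 without Dgal replicate 2.

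Both adhesion molecules, which hold leukocytes through integrins, fell, beside 17.8% of all genes tested. Vcam1 had 5043, 5141 and 5046 normalized counts in the Con libraries and 3376, 3054 and 3133 in the Dgal libraries, 1.59-fold lower (log2 fold change -0.67, SE 0.04, adjusted p = 2.41e-05, 95% interval -0.77 to -0.57). Icam1 had 278, 249.7 and 266 normalized counts in the Con libraries against 221, 221 and 218 in the Dgal libraries (log2 fold change -0.27, SE 0.08, adjusted p = 0.0392), and its adjusted p was 0.0789 to 0.114 without Con replicate 1 or 3 or any of the Dgal libraries. Gm47079 overlaps Icam1 on the opposite strand, and 14.8% of the 31-base words of Icam1 are shared.

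Genes of the same pathways outside the list were counted for comparison, from 8 lists that held 262 different gene symbols. These matched 260 genes, of which 191 were tested. Some genes, such as Bcl3 and Csf3, stood in more than 1 list, so the counts of the lists are not independent. Of the 191 genes, 33 rose (17.3%) and 59 fell (30.9%), beside 16.9% and 17.8% of all genes tested. The median log2 fold change of the 191 was -0.08. In the NF-kB pathway list, 5 of 39 genes rose (12.8%) and 7 fell (17.9%), with a median of -0.03. These shares were close to those of all genes tested. Bcl3, an atypical IkB protein, fell (log2 fold change -1.45, SE 0.15, adjusted p = 2.55e-04), as did the A20-binding protein Tnip1 (-0.33), whereas the deubiquitinase Cyld (0.33) and the adaptor Myd88 (0.43) rose.

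In the list of inducible NF-kB targets, 6 of 27 genes rose (22.2%) and 12 fell (44.4%), with a median of -0.31. Ier3, an early response gene, rose from 1479.7 ± 28.8 to 4019 ± 378 normalized counts (SD, n = 3), and Saa3, an acute phase protein, fell from 117 ± 21.8 to 17.6 ± 4.94. Of the other cytokines and chemokines, 3 of 24 rose (12.5%) and 7 fell (29.2%). Csf3, the granulocyte growth factor, rose from 8.84 ± 1.53 to 37.7 ± 8.55 normalized counts, and Spp1 (-0.47), Kitl (-0.60) and Angptl4 (-0.39) fell on the log2 scale.

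In the list of cytokine receptors and their signalling, 6 of 39 genes rose (15.4%) and 10 fell (25.6%). The log2 fold changes in this list ran from -2.13 to 0.90. Among those that fell, Il6ra, the ligand-binding receptor of interleukin-6, was at -0.79. Cish, an inhibitor of cytokine signalling, was at -0.85, Il13ra1 at -0.86 and Il17rc at -0.56. In the plasminogen list 5 of 16 rose (31.25%) and 6 fell (37.5%), with log2 fold changes from -0.85 to 1.42. When the change also had to reach 1 in size, 1 gene was higher and 0 were lower. Among those that fell, Serpine2, an inhibitor of urokinase, was at -0.58. S100a10 and Anxa2, which form a plasminogen receptor, were at -0.66 and -0.64. Next to Ptgs2, 2 of the 15 other prostaglandin genes rose (13.3%) and 7 fell (46.7%). The prostacyclin synthase Ptgis (-0.57), the prostaglandin transporter Slco2a1 (-1.70) and the receptors Ptgfr (-1.16) and Ptger4 (-1.06) were among those that fell.

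Of the other leukocyte adhesion genes, 3 of 15 rose and 6 fell, with the hyaluronan receptor Cd44 at -0.57, Lgals3 at -1.13, Podxl at -2.18 and Alcam at 1.22. In the list of senescence and cytosolic DNA sensing genes, 6 of 27 rose (22.2%) and 10 fell (37.0%). The cell cycle inhibitor Cdkn2b, p15, rose from 281 ± 11.6 to 803 ± 66.8 normalized counts, and Lmnb1 (lamin B1, -0.45), Hmgb2 (-0.55) and Sqstm1 (-0.37) fell. These genes were named for the smallest p in the list. The list also held Cdkn1a, Cdkn2a, Trp53 and Glb1, whose values are not given here, so the genes named do not stand for the list.

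**Figure D5:**
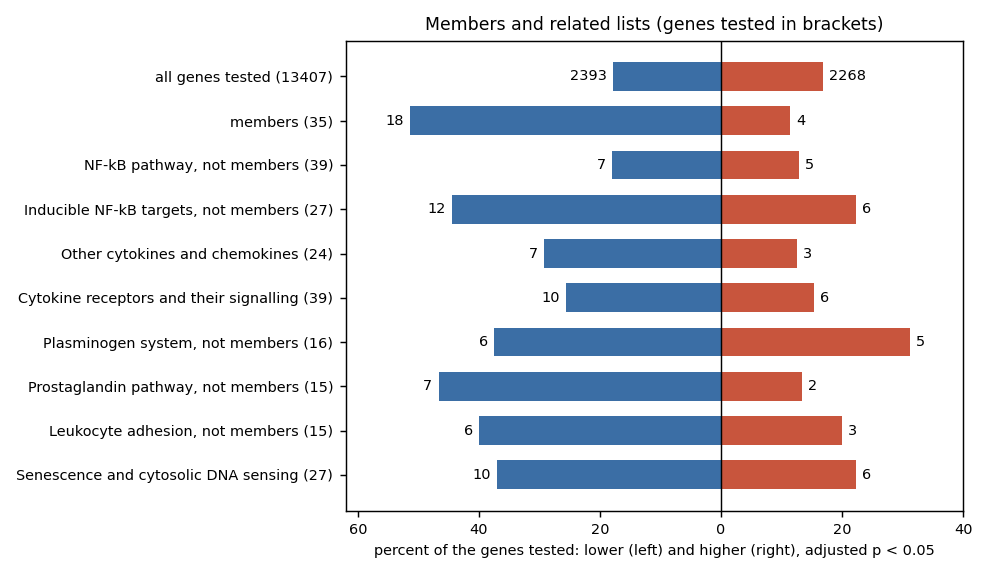
Percent of the genes tested in each list that were lower (blue, to the left) or higher (red, to the right) in the Dgal libraries at an adjusted p under 0.05, with the number of genes at each bar and the number tested in brackets. The members had 18 lower and 4 higher of 35, and the list of inducible NF-kB targets 12 lower and 6 higher of 27. A gene that stood in several lists is counted in each.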

How the data were processed

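RNA-seq of NOR-10 fibroblasts was re-analysed with 3 Con and 3 Dgal libraries, grouped by the sample labels. The authors deposited, for each gene and library, a read count without normalization and an FPKM value (the count divided by gene length and library total). According to the methods, reads were checked with FastQC 0.11.9 and trimmed with Trimmomatic 0.39, and the submitters' processing notes name HISAT2 2.0.4. The counting tool and its strand setting are not given in the sources used here, so counts of overlapping genes may mix reads. The study's methods and the labels name different library kits.

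Genes were tested with edgeR 4.0.16 (R 4.3.3) by TMM scaling, filterByExpr and the quasi-likelihood test, without covariates, with Benjamini-Hochberg adjustment over 13407 genes. To normalize, each count was divided by its library's size after TMM scaling and brought to the mean size of 16782907. The SE of a log2 fold change is its size over the root of F. An adjusted p under 0.05 counted as a rise or fall, and differential expression also needed a log2 fold change reaching 1 in either direction, as in the study's methods. Levels per kilobase divide by the union of annotated exons. Exons and overlaps came from GENCODE M21 (GRCm38), in which 33 of the 41 members had the table's start and end. Single genes were also compared by a two-sided exact permutation test on log2(normalized count + 0.5).

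The members, roles, motifs and other lists were chosen with earlier results of these data known, and lists were written from general knowledge. Members past the threshold or below the filter are named, the 3 smallest p of each role are given by library, and of each other list at most the 4 smallest p. The alternatives were DESeq2 1.42.0, RLE size factors, 2 filters on low counts, a replicate block, each library left out, limma 3.58.1 on log2(FPKM + 1) and log2(FPKM + 0.1), and an adjusted p under 0.01. The functions were tested on simulated data. Same-numbered libraries of the 2 groups did not deviate together (correlations -0.0114 to 0.0277), so the numbers were not taken as pairs. All pairs of replicates differed by more than sampling noise (chi-square over its degrees of freedom, 6.00 to 9.42), so none was counted as a duplicate.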

Additional observations from a re-analysis of the deposited data

How the results depend on the processing

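Of the 22 members that passed an adjusted p under 0.05, 17 (3 higher, 14 lower) passed under each of the 13 alternatives at that threshold. Ccl5, Icam1, Lif, Nfkb1 and Plaur were lost under at least 1, and Ccl2, Cxcl1, Cxcl10, Cxcl16 and Il6st were gained under at least 1. The count was 21 with DESeq2, 23 with limma on log2(FPKM + 1), 18 to 21 with a library left out, and 17 at an adjusted p under 0.01. With the replicate block it was 22 with 19 shared, losing Ccl5, Icam1 and Lif and gaining Cxcl1, Cxcl10 and Il6st; the numbers did not pair the libraries. The 3 differentially expressed members became 1 with limma on log2(FPKM + 1), where the pseudocount shrinks low genes (Il33 at -0.69), and 2 to 3 with a library left out. The median log2 fold change of the tested members was -0.20 with limma on log2(FPKM + 1) and -0.27 to -0.24 with a library left out. Nfkbia changed sign, far from the threshold, at 0.0033 and 0.0034 with limma on log2(FPKM + 1) and log2(FPKM + 0.1), and ranged from -0.0666 without Dgal replicate 1 to 0.0112 without Con replicate 2; the cause was not tested. The genes of the other lists that passed numbered 92, and 76 to 98 under the alternatives. The length behind the deposited FPKM was 0.406 to 2.12 times the exon union, so the order of members by level per kilobase changes with the length chosen. Members under about 20 counts per library (Il11, Ccl8, Tnfrsf11b) have intervals too wide to show a change of moderate size.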

Other observations

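Ratios between members were computed within each library, for pairs chosen after their values were seen, and are given with no test. The level per kilobase of Csf1, the macrophage growth factor, over that of Cxcl12 was 0.767, 0.787 and 0.767 in the Con libraries and 1.84, 2.08 and 2.08 in the Dgal libraries. The ratio of Relb to Rela was 0.185, 0.156 and 0.158 in the Con libraries and 0.107, 0.0995 and 0.121 in the Dgal libraries, and that of Nfkb2 to Rela was 0.764, 0.757 and 0.866 against 0.638, 0.583 and 0.632. The inhibitor Nfkbia stood near the level of Rela in both groups, with ratios of 1.02, 1.02 and 1.04 in the Con libraries and 1.03, 0.927 and 0.958 in the Dgal libraries. The level of Plau, urokinase, over that of Plat, the tissue-type activator, was 1.27, 1.05 and 1.25 in the Con libraries and 0.895, 0.726 and 0.783 in the Dgal libraries. Ratios between genes depend on the lengths used. These are for the union of annotated exons, and with the length behind the deposited FPKM Plau was below Plat in both groups, at 0.522, 0.432 and 0.514 in the Con and 0.366, 0.297 and 0.321 in the Dgal libraries. With that length Csf1 over Cxcl12 was 0.806, 0.827 and 0.807 in the Con libraries and 1.93, 2.19 and 2.18 in the Dgal libraries.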
